A study of Rattus norvegicus with 12 samples.

Results

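The comparison described here is that of S-allylmercaptocysteine (SAMC) given on a high fat diet: liver transcripts of rats on the diet with SAMC (HFD+SAMC) were set against those of rats on the diet alone (HFD), across all measured genes. Its members were chosen by the treatment labels and are 3 libraries a side, 6 of the 12 libraries of the series. The titles number the HFD libraries 2, 3 and 4 and the HFD+SAMC libraries 1, 2 and 3. Every library came from whole liver of Sprague Dawley rats, and both groups compared share the high fat diet. The remaining 6 libraries came from a normal diet (Control) and a normal diet with SAMC (Control+SAMC), 3 each. No label used here gives a dose, the diet's composition, a duration, or the sex or age of the animals. Nor do the labels state that the samples of a group came from separate animals, so the p-values cover only the spread among the libraries as deposited, part or all of which may be technical. The title of the series names fatty liver, drug metabolising enzymes under AhR and Nrf2, and inflammation through NF-kB, NLRP3 and NLRP6.

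SAMC is a water-soluble garlic compound in which cysteine carries an allyl group through a disulfide. Organosulfur compounds and other electrophiles can modify Keap1, which otherwise marks the transcription factor Nrf2 for degradation. Nrf2 then binds antioxidant response elements in genes for glutathione synthesis, aldehyde and quinone reductases, glutathione S-transferases and exporters of conjugates. Cholesterol synthesis in liver is governed by Srebp2 (gene Srebf2), which Insig proteins retain in the endoplasmic reticulum when sterols are plentiful and which is cleaved when they are scarce. Its targets run along the whole synthesis pathway from the mevalonate enzymes on, and they commonly move as a block. Inflammasomes are complexes built on sensors such as NLRP3 that activate Casp1, the protease that matures interleukin 1 beta.

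The 6 libraries held 51518564 to 61937544 counts each. Hepatocyte markers were abundant in every one, with a summed level of 131920 to 175183 CPM (counts scaled to a common library total) in HFD and 143121 to 166527 in HFD+SAMC. Whole tissue was sequenced, so fewer cells of a type and less RNA per cell cannot be told apart. Transcripts of Fga, which encodes a chain of fibrinogen, stood at 3822, 3378 and 14057 CPM in HFD and 8221, 10748 and 12892 CPM in HFD+SAMC, low in HFD replicates 2 and 3. Skeletal muscle markers summed to 1268 CPM in HFD+SAMC replicate 3 and to between 0.998 and 1.65 CPM in the other 5 libraries. On log2 CPM the distance between libraries was 0.679 to 0.781 within HFD, 0.650 to 0.729 within HFD+SAMC and 0.738 to 0.859 between the groups, and HFD replicate 4 lay nearer to HFD+SAMC replicates 1 and 2 than to either other HFD library. The female-typical Cyp2c12 stood at 3504, 3387 and 2561 CPM in HFD and 3433, 4219 and 3831 CPM in HFD+SAMC, while the male-typical Cyp2c11 did not exceed 0.386 CPM in any of them. The deposited values also split the libraries into 2 sets: the gene length implied by the ratio of the deposited counts and RPKM of RGD1562465 was 3377 bases in Control and HFD+SAMC and 4432 bases in Control+SAMC and HFD. In HFD against Control the set cannot be told apart from the diet, and the HFD libraries are shared with HFD+SAMC against HFD. In HFD+SAMC against HFD the set and SAMC cannot be told apart. The SAMC effect averaged over both diets, in which each arm holds both sets, is therefore given beside the results that turn on it.

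Values by library are given below in the order of the replicate numbers, and ± after a log2 fold change is the standard error of the edgeR fit.

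SAMC on the high fat diet changed few genes at the threshold used, an adjusted p of 0.05 over all 15916 tested genes in edgeR's quasi-likelihood test. There were 8 such genes, 3 higher and 5 lower with SAMC, or 0.0503% of those tested (0.0188% higher and 0.0314% lower). The 3 that rose were Gstp1, Akr7a3 and Tmem97, which encode a glutathione S-transferase, an aldehyde reductase and a sterol-regulated membrane protein. Among the 5 that fell were Rnf144b, a ubiquitin ligase gene, and Acnat2, whose product joins acyl groups to glycine or taurine. The other 3 that fell are provisional entries for copies of translation genes. At an unadjusted p of 0.05 the count was 1690 genes, 10.6% of those tested (840 higher, 5.28%, and 850 lower, 5.34%), and the 3 libraries of the groups did not overlap for 2993 genes (18.8%, or 9.4% higher and 9.41% lower). The median log2 fold change over all tested genes was 0.003, and 1284 genes lay beyond 1 on that scale, 541 higher and 743 lower; 50.5% of all genes were above 0. Beside SAMC on the normal diet, where the same fit called 19 genes (0.119%), 18 higher (0.113%) and 1 lower (0.00628%), the number of calls was of the same order.

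The count of 8 rested on single libraries. It was 1 without HFD+SAMC replicate 3, 2 without HFD+SAMC replicate 2, 3 without HFD replicate 2 or Control replicate 3, 4 without HFD+SAMC replicate 1, 5 without HFD replicate 3 or Control+SAMC replicate 3, 14 without Control replicate 1 and 27 without Control replicate 2. Gstp1 alone passed in all 12 of these fits, LOC100911991 in 11, LOC103691939 in 8, Tmem97 in 6, Rnf144b in 5, Akr7a3 and LOC100911847 in 4 and Acnat2 in 3, with adjusted p of at most 0.271 in edgeR. Without HFD replicates 2 and 3 together edgeR called 0 genes. Of the 15916 genes, 434 were then higher and 392 lower at an unadjusted p under 0.05. DESeq2 called 249 genes on all libraries, and a fit of the 6 libraries alone called 23. In simulated counts with the same library totals, the edgeR test recovered 10% of 1.5-fold changes, 48% of 2-fold changes and 92% of 4-fold changes. Many changes of the smaller sizes would thus not reach the threshold. The changed genes were drawn from those with a mean CPM above 1, and no library set or outlying library was simulated. Recovery in the deposited counts may therefore be lower.

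The volcano plot of all tested genes shows how few points clear the threshold and where the cholesterol genes lie among them.

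**Figure D1:**
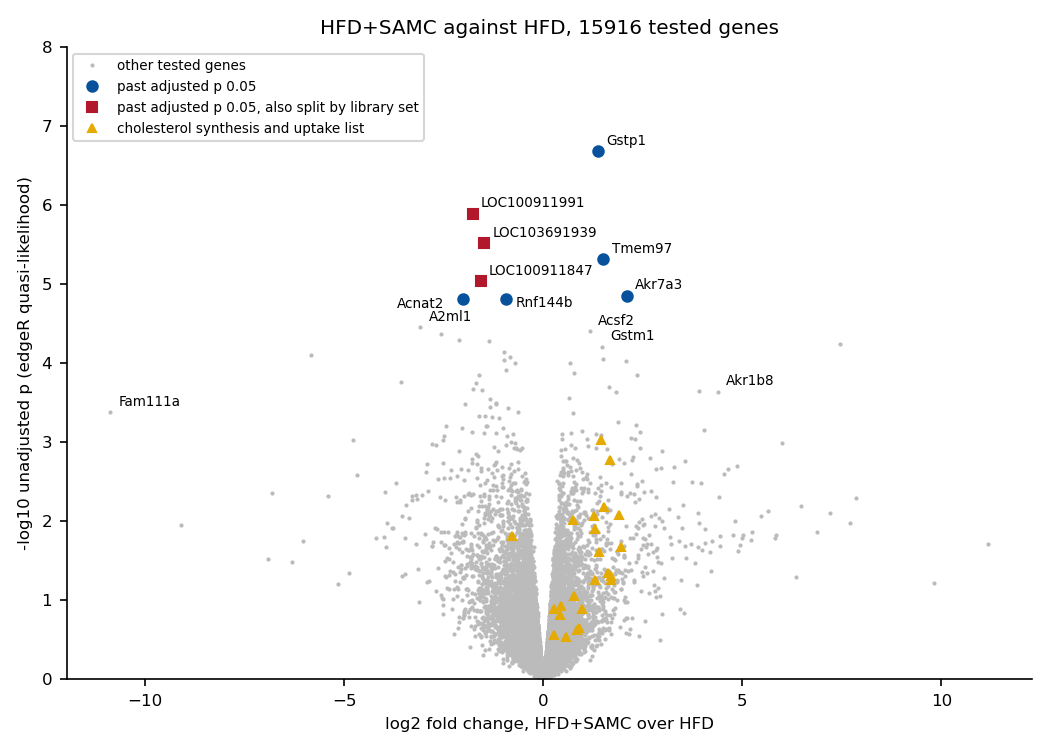
Each point is 1 of 15916 tested genes, with the log2 fold change of HFD+SAMC over HFD on the x axis and the −log10 of the unadjusted edgeR p on the y axis. The 8 labelled large markers pass an adjusted p of 0.05, with squares for the 3 that also separate the library sets; yellow triangles mark the cholesterol list apart from Tmem97, and all but 1 of them lie to the right of 0.

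The promoters of 4 genes are shown because they stand for both programmes that lead the results: Gstp1, Gsta3 and Akr7a3 for Nrf2-linked detoxification, and Tmem97 for sterol control. Each runs from 250 bases before to 50 bases after the annotated RefSeq start on GRCr8, on the gene's own strand. Capitals mark a match to TGACNNNGC, the core of the antioxidant response element. The positions are chr1:210769656-210769955 (minus strand) for Gstp1, chr9:31154739-31155038 (plus) for Gsta3, chr5:156876471-156876770 (plus) for Akr7a3 and chr10:63945310-63945609 (minus) for Tmem97.
Gstp1: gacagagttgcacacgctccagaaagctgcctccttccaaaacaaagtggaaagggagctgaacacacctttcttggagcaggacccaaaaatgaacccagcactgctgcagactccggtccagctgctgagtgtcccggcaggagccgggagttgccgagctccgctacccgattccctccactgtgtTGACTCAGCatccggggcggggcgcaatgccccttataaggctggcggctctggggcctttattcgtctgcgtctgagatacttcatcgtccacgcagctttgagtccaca
Gsta3: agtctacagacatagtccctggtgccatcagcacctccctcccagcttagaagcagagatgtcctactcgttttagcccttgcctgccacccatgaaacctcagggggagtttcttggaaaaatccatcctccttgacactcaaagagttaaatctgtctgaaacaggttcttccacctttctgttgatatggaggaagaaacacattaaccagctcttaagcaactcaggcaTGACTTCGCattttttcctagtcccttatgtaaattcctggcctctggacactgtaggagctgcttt
Akr7a3: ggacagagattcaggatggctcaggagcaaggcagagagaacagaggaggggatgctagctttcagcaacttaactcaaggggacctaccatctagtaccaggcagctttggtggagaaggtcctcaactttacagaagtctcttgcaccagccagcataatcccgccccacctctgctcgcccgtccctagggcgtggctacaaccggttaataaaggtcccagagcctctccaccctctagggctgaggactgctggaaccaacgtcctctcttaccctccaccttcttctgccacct
Tmem97: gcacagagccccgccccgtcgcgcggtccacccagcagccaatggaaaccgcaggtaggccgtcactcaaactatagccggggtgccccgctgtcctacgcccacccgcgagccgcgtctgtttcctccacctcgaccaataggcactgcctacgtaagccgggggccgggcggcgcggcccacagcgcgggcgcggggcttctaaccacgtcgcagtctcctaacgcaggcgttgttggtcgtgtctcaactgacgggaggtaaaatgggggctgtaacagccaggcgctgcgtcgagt
The match TGACTCAGC in Gstp1 began 61 bases before the start, and TGACTTCGC in Gsta3 began 17 bases before it. Of all 33469 promoters in the table, 12.1% held TGACNNNGC on either strand, so a match is common. The windows of Akr7a3 and Tmem97 held none of the 4 motifs searched, the others being TCACNCCAC for sterol regulatory elements (1.12% of promoters), TNGCGTG for the xenobiotic response (4.89%) and the PPAR response element (0.0538%). Of the other 10 promoters searched, 8 held none of the 4, among them those of Akr1b8, Gstm1 and Nqo1. That of Fdps, a gene of cholesterol synthesis, held TGACNNNGC, and that of Insig1 held TNGCGTG. These letters describe the windows and were not tested as sites.

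The deposited table, which names no build, places Gstp1 on chromosome 1 from 219291679 to 219294147, Tmem97 on chromosome 10 from 65811455 to 65820538 and Rnf144b on chromosome 17 from 17817122 to 17947777, all on the minus strand. It places Akr7a3 on chromosome 5 from 157801120 to 157813756 (plus strand) and Acnat2 on the same chromosome from 64669998 to 64674250 (minus strand). The counts are per gene and do not tell exons apart.

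Gstp1 had the smallest p of any gene. It encodes the pi class glutathione S-transferase, which is scarce in normal rat hepatocytes. In HFD its level was 11.8, 13 and 11.1 CPM, and in HFD+SAMC 36.2, 27.8 and 28.5 CPM. The groups did not overlap. The log2 fold change was 1.36 ± 0.13 (edgeR, adjusted p = 0.00332), and it stayed past the threshold in all 12 fits that each left out 1 library. On the normal diet Gstp1 also rose, from 13.4 ± 1.19 (SD, n = 3) to 54.2 ± 2.45 (SD, n = 3) CPM, a log2 fold change of 2.02 (edgeR, adjusted p = 4.88e-05).

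Akr7a3 encodes the aflatoxin aldehyde reductase, a textbook Nrf2-linked enzyme of rat liver. Its level was 32.9, 44 and 38.2 CPM in HFD and 167, 167 and 156 CPM in HFD+SAMC. All libraries with SAMC were high and close to each other, and the groups did not overlap. The log2 fold change was 2.09 ± 0.30 (edgeR, adjusted p = 0.0311), a 4.26-fold difference. With 1 library left out it passed in 4 of 12 fits, with adjusted p up to 0.219. Without SAMC, HFD stood above Control, at 38.4 ± 5.51 (SD, n = 3) against 19.9 ± 2.41 (SD, n = 3) CPM, while SAMC on the normal diet reached 339.7 ± 173 (SD, n = 3) CPM.

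Tmem97, also called the sigma-2 receptor, lies in the endoplasmic reticulum, binds sterols and is a target of Srebp2. It stood at 19.8, 15.8 and 17.8 CPM in HFD and at 45.1, 52.3 and 55.1 CPM in HFD+SAMC. Every library with SAMC was far above every one without. The log2 fold change was 1.51 ± 0.19 (edgeR, adjusted p = 0.0191). HFD had a log2 fold change of -1.94 against Control (edgeR, adjusted p = 0.00402, where 23 genes or 0.145% passed), from 68.6 ± 20.9 (SD, n = 3) CPM. In that difference the diet and the library set cannot be told apart. The HFD+SAMC level lay between those of the 2 groups without SAMC. On the normal diet the gene stood 0.58 log2 units higher with SAMC (edgeR, adjusted p = 0.347).

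Rnf144b encodes a RING-type ubiquitin ligase linked to p53-dependent cell death. Its level was 108, 109 and 89.8 CPM in HFD and 62, 48.6 and 48.4 CPM in HFD+SAMC, without overlap. The gene fell by 0.95 on the log2 scale (SE 0.14, edgeR, adjusted p = 0.0311). Control stood at 102 ± 4.72 (SD, n = 3) CPM, level with HFD, and Control+SAMC at 85.3 ± 9.08 (SD, n = 3) CPM.

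Acnat2 encodes an acyl-CoA:amino acid N-acyltransferase of peroxisomes. It was scarce in every library, at 4.78, 7.02 and 6.85 CPM in HFD and 1.4, 1.13 and 2.07 CPM in HFD+SAMC. The groups did not overlap, and the gene fell by 2.02 on the log2 scale (SE 0.29, edgeR, adjusted p = 0.0311), 4.05-fold. Control libraries averaged 1.04 ± 0.0602 (SD, n = 3) CPM, and HFD stood 2.57 log2 units above them (edgeR, adjusted p = 0.00478). In that difference the diet and the library set cannot be told apart. The level with SAMC was near that of Control, which is in the same library set. Gstp1, Akr7a3, Tmem97, Rnf144b and Acnat2 all passed the threshold when SAMC was averaged over both diets (35 genes, 0.22%), with adjusted p of 6.01e-06, 6.97e-05, 0.00832, 0.0272 and 0.0272 in edgeR.

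**Figure D2:**
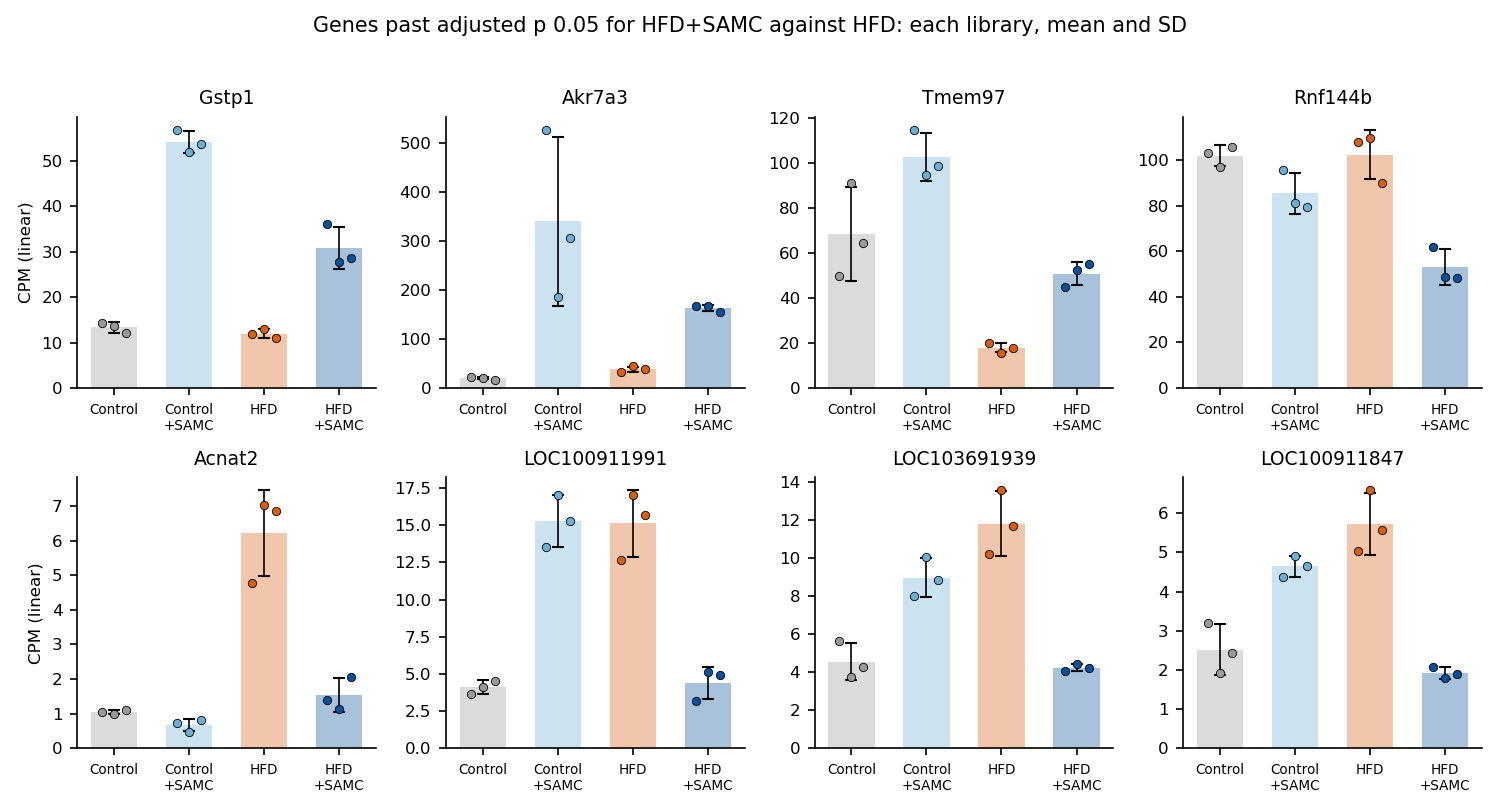
CPM on a linear axis in each of the 12 libraries for the 8 genes past an adjusted p of 0.05; points are libraries, bars are group means and whiskers are the SD over 3 libraries. In the first 5 panels HFD+SAMC differs from HFD in the same direction as Control+SAMC from Control, while in the 3 provisional genes the pairs Control with HFD+SAMC and Control+SAMC with HFD sit together on the low and the high side.

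The 3 provisional genes behaved differently. LOC100911991, annotated as like elongation factor 1-alpha 1, stood at 12.7, 17 and 15.7 CPM in HFD and 3.18, 5.14 and 4.94 CPM in HFD+SAMC (log2 fold change -1.78 ± 0.20, edgeR, adjusted p = 0.0102). LOC103691939, annotated as elongation factor 1-alpha 2, stood at 10.2, 13.6 and 11.7 against 4.08, 4.42 and 4.21 CPM (log2 fold change -1.48 ± 0.18, edgeR, adjusted p = 0.016). LOC100911847, like ribosomal protein S14, stood at 5.04, 6.59 and 5.56 against 2.08, 1.8 and 1.89 CPM (log2 fold change -1.57 ± 0.22, edgeR, adjusted p = 0.0294). On the normal diet all 3 were higher with SAMC, by 1.90, 0.97 and 0.88 log2 units, so they were high in all libraries of one set (Control+SAMC and HFD) and low in all of the other. Averaged over diets their log2 fold changes were 0.06, -0.25 and -0.35, and none passed. Such copies share reads with near-identical genes, so their counts are uncertain.

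Below the threshold, the next genes by p were chosen for abundance, a settled symbol and no overlap between the groups. None passed, so values are given. Gstm1, a mu class glutathione S-transferase and the most abundant of them, stood at 379.7, 478 and 549.6 CPM in HFD and 1067, 1729 and 1084 CPM in HFD+SAMC (log2 fold change 1.46 ± 0.24, edgeR, adjusted p = 0.0655). Acsf2, a mitochondrial acyl-CoA synthetase gene, stood at 69.1, 60.9 and 45.6 against 158, 134 and 104 CPM (log2 fold change 1.17 ± 0.19, edgeR, adjusted p = 0.0622). Abcd2 encodes a peroxisomal importer of very long chain fatty acids. It stood at 1.99, 1.75 and 2.9 CPM in HFD and 9.57, 11.5 and 6.93 CPM in HFD+SAMC, 4.21-fold higher (edgeR, adjusted p = 0.0689), while Control and Control+SAMC averaged 2.44 ± 1.2 (SD, n = 3) and 2.45 ± 0.31 (SD, n = 3) CPM. Mrps27 of the mitochondrial ribosome and Tprg1l were higher by 0.67 ± 0.12 and 0.76 ± 0.14 log2 units, and Smtnl2 by 1.82 ± 0.35.

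Akr1b8, an aldo-keto reductase gene, had the largest difference in this group. Its level was 1.64, 2.29 and 1.38 CPM in HFD and 51.2, 23.8 and 36.7 CPM in HFD+SAMC, 21-fold higher, but with a spread that left the adjusted p at 0.105 in edgeR. On the normal diet it stood at 1.27 ± 0.401 (SD, n = 3) CPM without and 31 ± 23.5 (SD, n = 3) CPM with SAMC. Averaged over diets its edgeR adjusted p was 0.0159.

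Lower in the same way were A2ml1, a protease inhibitor gene, at 21.5, 9.26 and 19.6 CPM in HFD and 1.14, 2.16 and 2.58 CPM in HFD+SAMC (8.54-fold lower, edgeR, adjusted p = 0.0618), and Mtmr7, a lipid phosphatase gene, at 9.95, 8.32 and 5.01 against 1.98, 1.79 and 1.61 CPM. Hsd17b13, a lipid droplet protein gene known from human fatty liver genetics, stood at 110.1, 121 and 119.6 CPM in HFD and 73.7, 64.3 and 75.8 CPM in HFD+SAMC (log2 fold change -0.72 ± 0.13, edgeR, adjusted p = 0.0689). Each library with SAMC was below each without. Prdx4, a peroxiredoxin of the secretory pathway, differed by -0.84 ± 0.14 log2 units and Apon, an apolipoprotein gene, by -0.98 ± 0.17. Hnrnpab and Eif4g2-ps1, lower by 1.37 and 0.99 log2 units, also separated the library sets, with higher values in Control+SAMC and HFD.

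The gene lists differed in how many members lay at an unadjusted p of 0.05. Over 22 lists, the highest share of higher members was in cholesterol synthesis and uptake, with 12 of 24, followed by glutathione S-transferases with 7 of 23 and Nrf2 regulators and targets with 11 of 40. The highest shares of lower members were in the cell cycle with 6 of 25, glucose and insulin response with 5 of 21 and lipid droplets and lipoproteins with 7 of 30. The same shares over all tested genes were 5.28% higher and 5.34% lower. Some genes stand in more than 1 list, and the lists were described by these counts without a test of their own.

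**Figure D3:**
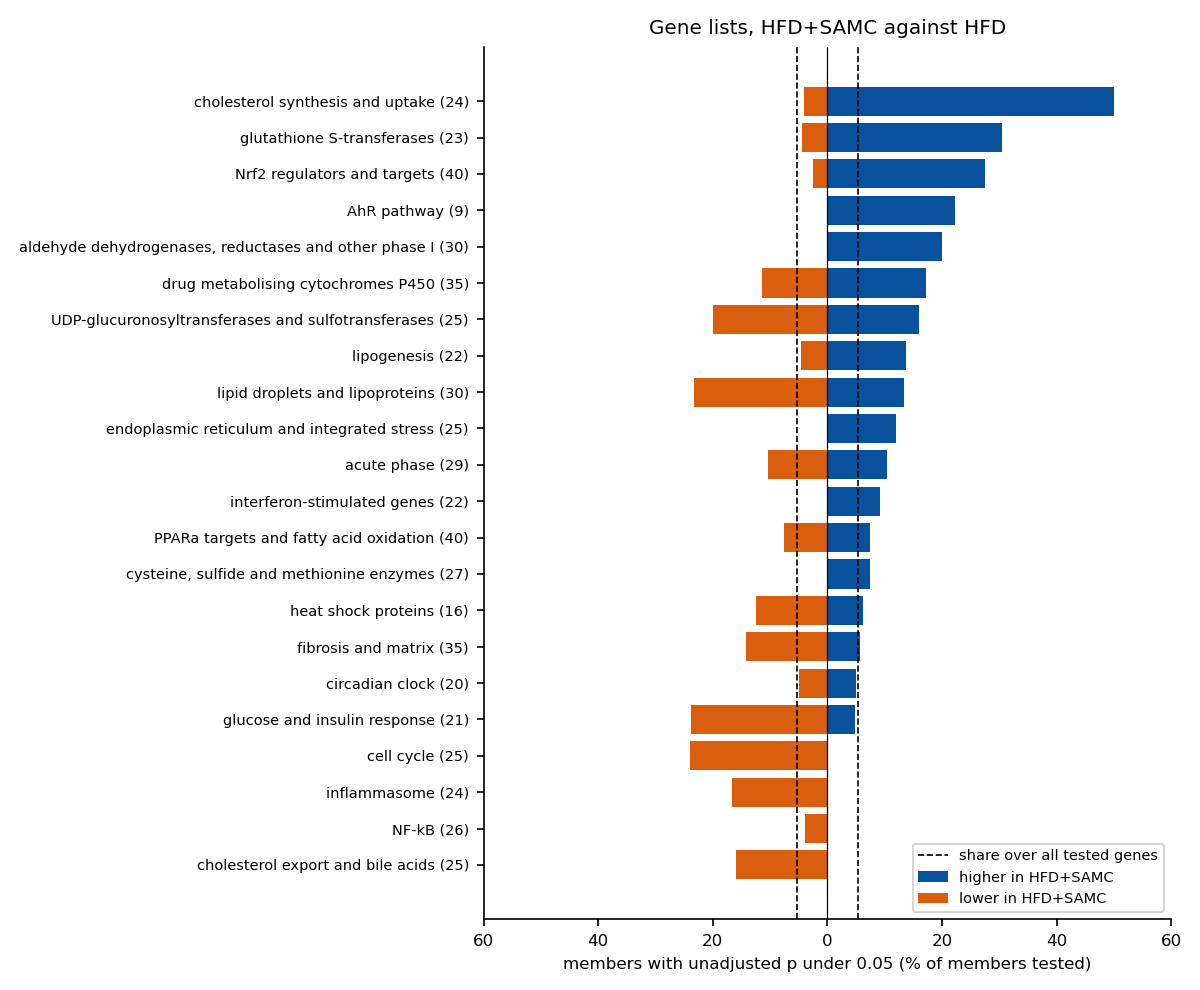
Bars give the percent of tested members of each of 22 gene lists with an unadjusted edgeR p under 0.05, to the right when higher and to the left when lower in HFD+SAMC than in HFD; the number tested stands in brackets and the dashed lines mark the shares over all genes, 5.28% and 5.34%. The cholesterol synthesis list reaches farthest to the right, and the cell cycle and glucose lists farthest to the left.

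Apart from Insig2, the cholesterol genes described here stood higher with SAMC. Of the 24 genes tested, 23 had a log2 fold change above 0, 12 were higher and 1 lower at an unadjusted p of 0.05, and 1, Tmem97, passed the adjusted threshold. The libraries did not overlap for 19 higher members and 1 lower one. The median log2 fold change was 1.29, beside 0.003 over all genes. Relative to each gene's mean, the list's median was -0.58, -0.19 and -0.87 in the HFD libraries and 0.64, 0.86 and 0.34 in the HFD+SAMC libraries. HFD against Control, which also crosses the library sets, had a median of -1.94, and SAMC on the normal diet one of 0.60.

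All 8 mevalonate enzymes tested were above 0, with a median of 1.29. Hmgcs1, which makes the precursor of mevalonate, stood at 109.8, 165 and 63.9 CPM in HFD and 346, 424 and 269 CPM in HFD+SAMC (log2 fold change 1.62 ± 0.71, edgeR, adjusted p = 0.457). Idi1, an isomerase of isoprenoid units, stood at 11.9, 15.7 and 3.05 against 40.3, 47.2 and 31.7 CPM without overlap. HFD replicate 4 was the lowest library for both Hmgcs1 and Idi1. Pmvk, Fdps and Fdft1, which act in turn between mevalonate and squalene, had log2 fold changes of 1.28 ± 0.40, 1.31 ± 0.44 and 1.41 ± 0.54 with no overlap.

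Of the 10 enzymes after squalene tested, all were above 0 and 9 did not overlap, with a median of 1.49. Cyp51, the lanosterol demethylase gene, stood at 83.2, 117 and 65.6 against 277, 340.2 and 229 CPM (log2 fold change 1.67 ± 0.41, edgeR, adjusted p = 0.244). Sqle, the squalene epoxidase gene and a point of control, stood at 11.9, 15.4 and 6.72 against 43.4, 47.7 and 35.7 CPM (log2 fold change 1.90 ± 0.58, edgeR, adjusted p = 0.316). In both the lowest library was HFD replicate 4. Dhcr7, Lss and Msmo1 had log2 fold changes of 1.53 ± 0.46, 1.69 ± 0.75 and 1.71 ± 0.79. Tm7sf2, a sterol reductase gene, stood at 58.6, 50.9 and 66.4 against 172, 208 and 104 CPM and was higher by 1.46 ± 0.33 log2 units on the high fat diet, beside -0.46 on the normal diet.

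The listed genes grouped as uptake and control include no receptor of uptake. Among them, Srebf2 was higher by 0.75 ± 0.24 and Insig1 by 1.31 ± 0.61 log2 units. Insig2, the isoform not driven by Srebp2, ran the other way at 259.9, 180.01 and 163 against 154, 94.2 and 99 CPM (log2 fold change -0.80 ± 0.28).

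The cholesterol count was taken again without libraries that stand apart. It was 9 higher and 0 lower without HFD replicates 2 and 3, where 2.73% and 2.46% of all genes were higher and lower, and 10 and 0 without HFD+SAMC replicate 3 (3.89% and 4.22%). Averaged over diets it was 14 and 1, where 6.31% and 6.11% of all genes were higher and lower. Leaving out HFD replicate 4 gave 7 higher and 1 lower (6.69% and 6.47%).

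**Figure D4:**
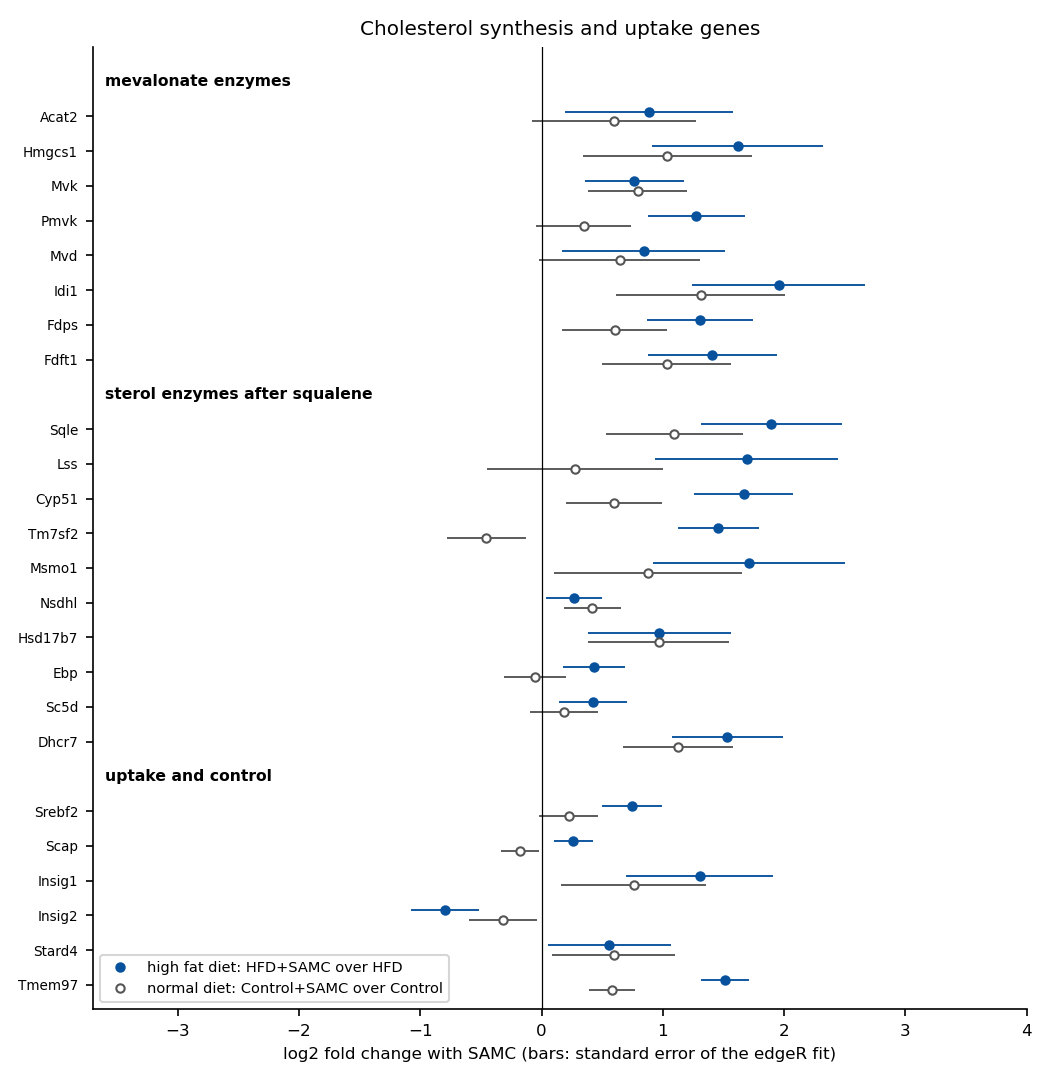
Log2 fold change with SAMC (x axis; bars are the standard error of the edgeR fit) for 24 cholesterol synthesis and uptake genes, grouped by role, with filled points for the high fat diet and open points for the normal diet. On the high fat diet 23 of 24 points lie right of 0, with Insig2 to the left and Idi1 farthest to the right.

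Genes of cholesterol export and bile acids showed no such shift. Of 25 tested, 0 were higher and 4 lower at an unadjusted p of 0.05, none passed the adjusted edgeR threshold, and the median log2 fold change was -0.08. All 9 genes of export and esterification were below 0. Abcg5 and Abcg8, which form the transporter of sterols into bile, stood at 16.5, 26.4 and 12.3 against 8.999, 1.68 and 4.43 CPM and at 4.67, 9.89 and 3.11 against 1.91, 0.329 and 0.851 CPM. Both were without overlap, with log2 fold changes of -1.87 ± 0.52 and -2.51 ± 0.62. Control, of the same library set as HFD+SAMC, averaged 4.8 ± 0.765 (SD, n = 3) CPM of Abcg5, close to the HFD+SAMC mean of 5.03 ± 3.7 (SD, n = 3) CPM. Nr0b2, the repressor of bile acid synthesis, stood at 23.4, 17.5 and 7.35 against 3.37, 0.235 and 1.32 CPM (log2 fold change -3.29 ± 0.92, edgeR, adjusted p = 0.269). Cyp7a1, the rate-limiting enzyme of bile acid synthesis, overlapped at 133, 221 and 98.3 against 208, 387 and 189.7 CPM. Baat, which conjugates bile acids, was lower without overlap, at 725, 902 and 790.2 against 588, 546 and 539 CPM. Without HFD replicates 2 and 3 the count of lower members was 0, and without HFD replicate 4 it was 6.

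Nrf2 targets divided by role. Of 40 regulators and targets tested, 31 were above 0, 11 were higher and 1 lower at an unadjusted p of 0.05, and Gstp1 and Akr7a3 passed the adjusted threshold. The median log2 fold change was 0.26 on the high fat diet and 0.74 on the normal diet. Reductases and oxidases had a median of 0.48 and conjugation and export genes one of 1.00, against 0.09 for glutathione and thioredoxin genes. The same medians on the normal diet were 1.12, 1.64 and 0.85, and averaged over diets 0.76, 1.33 and 0.49.

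Nfe2l2, the gene of Nrf2 itself, overlapped at 161, 178 and 133 CPM in HFD and 123, 148 and 142 CPM in HFD+SAMC (log2 fold change -0.19 ± 0.16, edgeR, adjusted p = 0.719). Mafg, its dimer partner, was lower without overlap, at 40.3, 50.6 and 41.3 against 31.4, 21.4 and 21.4 CPM. Glutathione synthesis genes did not separate the groups. Gclc, the catalytic subunit of glutamate cysteine ligase, stood at 176, 241 and 199 against 191, 159 and 179 CPM and Gclm, the modifier subunit, at 38.8, 93.1 and 47 against 49.5, 46.9 and 37.8 CPM. Their log2 fold changes were -0.22 ± 0.34 and -0.41 ± 0.39 on the high fat diet, beside 1.22 and 1.39 on the normal diet. Averaged over diets these values were 0.50 and 0.49. The difference between the diets had an edgeR adjusted p of 0.547 for Gclc and 0.494 for Gclm, so a difference was not shown. Gsr, glutathione reductase, was higher by 0.33 ± 0.15 log2 units, beside 0.98 on the normal diet and 0.66 averaged over diets (edgeR, adjusted p = 0.0272 for the average).

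The quinone reductase gene Nqo1, a standard readout of Nrf2, stood at 61.3, 93.6 and 98.5 CPM in HFD and 109.8, 129.8 and 72.1 CPM in HFD+SAMC, with overlap (log2 fold change 0.30 ± 0.34, edgeR, adjusted p = 0.802). Hmox1, which degrades heme, also overlapped at 74.6, 88 and 149.8 against 128, 122 and 185 CPM. Ephx1, microsomal epoxide hydrolase, stood at 238, 582 and 421 against 653, 1206 and 778 CPM and did not overlap. Aox1, aldehyde oxidase, stood at 325, 333 and 235 against 796, 763 and 691 CPM. Each library with SAMC was far above any without. Its wide standard error in the 12 library fit, 1.33 ± 0.55 log2 units, left the edgeR adjusted p at 0.43.

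Genes of conjugation and export come next. Ugt1a6, a glucuronosyltransferase of phenols, stood at 21.3, 12.6 and 18.5 CPM in HFD and 42.1, 67.5 and 26.7 CPM in HFD+SAMC (log2 fold change 1.38 ± 0.38, edgeR, adjusted p = 0.269). Abcc3, which exports conjugates to blood, stood at 12.2, 16.2 and 12.4 against 36.3, 58.8 and 28.7 CPM (log2 fold change 1.60 ± 0.37, edgeR, adjusted p = 0.208). In neither did the groups overlap. Both rose on the normal diet, by 3.32 and 3.09 log2 units (edgeR, adjusted p = 0.0186 and 0.0194). HFD without SAMC already stood above Control for Abcc3, at 13.6 ± 2.25 (SD, n = 3) against 4.24 ± 0.952 (SD, n = 3) CPM. Ggt1, which cleaves glutathione outside the cell and stands in the list of cysteine enzymes, was scarce at 0.369, 0.906 and 0.225 CPM in HFD and 4.28, 3.34 and 3.14 CPM in HFD+SAMC, 7.17-fold higher (edgeR, adjusted p = 0.248).

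**Figure D5:**
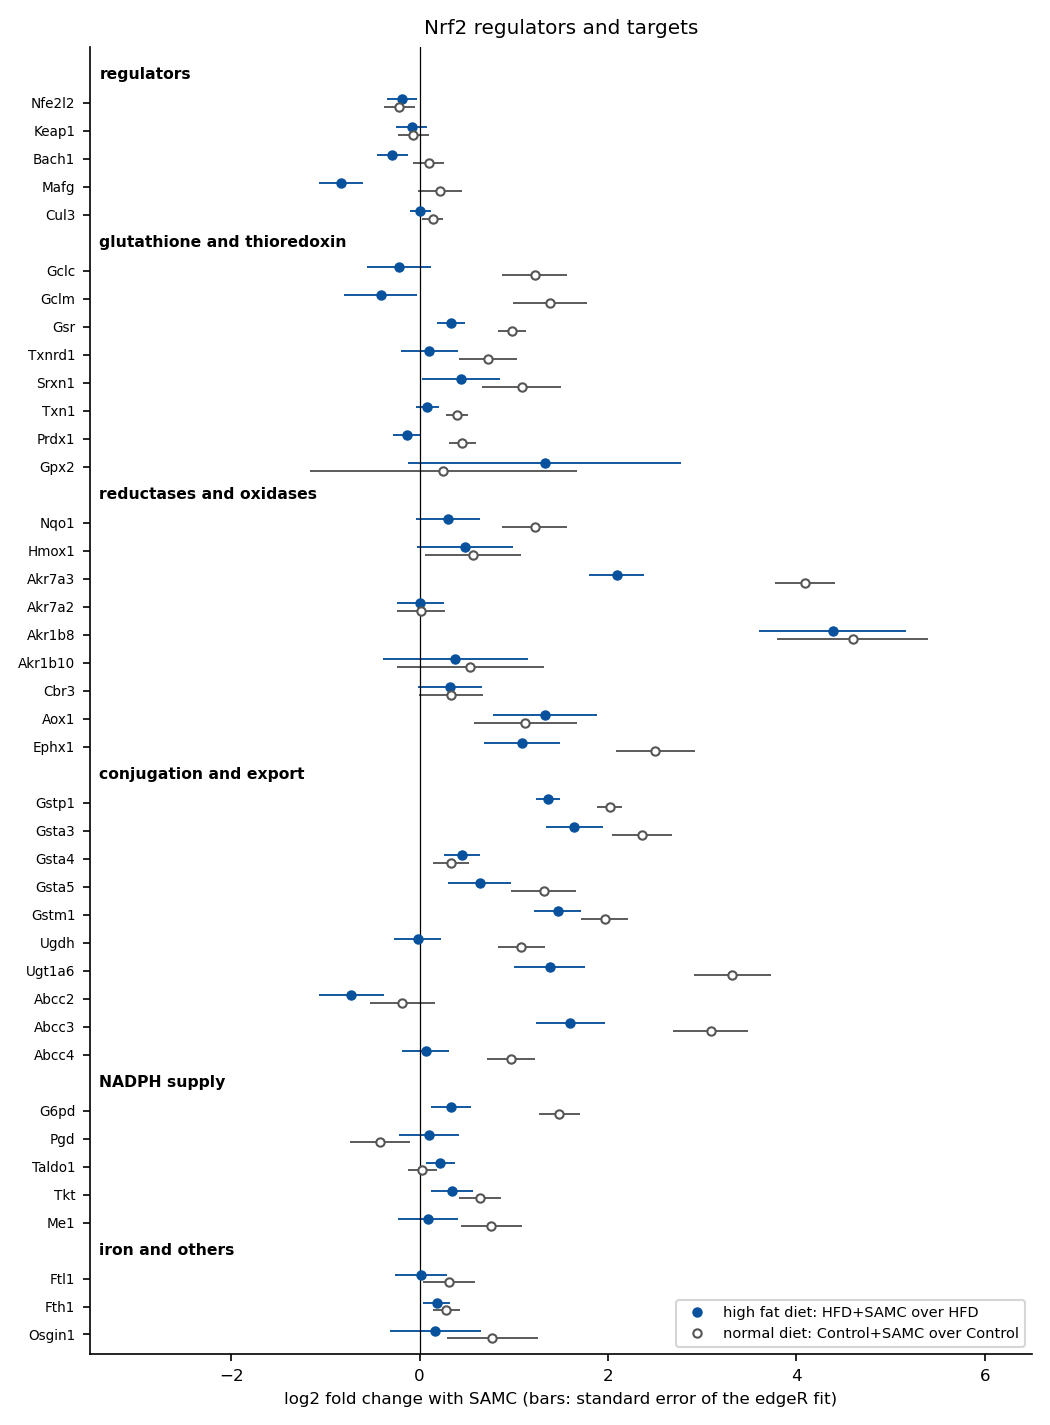
Log2 fold change with SAMC (x axis; bars are the standard error of the edgeR fit) for the 40 tested Nrf2 regulators and targets by role, with filled points for the high fat diet and open points for the normal diet. On the high fat diet Akr1b8 and Akr7a3 lie farthest to the right, while Gclc, Gclm and Mafg lie left of 0.

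Glutathione S-transferases had 18 of 23 members above 0, with 7 higher and 1 lower at an unadjusted p of 0.05 and a median of 0.17. Gsta3, an alpha class enzyme, stood at 31.1, 24.9 and 35.7 CPM in HFD and 116, 96.5 and 74.6 CPM in HFD+SAMC (log2 fold change 1.64 ± 0.31, edgeR, adjusted p = 0.105). Gstt3, of the theta class, stood at 156, 88.1 and 59.7 against 499.6, 514 and 382 CPM, 4.59-fold higher (edgeR, adjusted p = 0.2). Gstm2 and Gsta4 were higher by 0.82 ± 0.23 and 0.45 ± 0.19 log2 units without overlap. Mgst1, a microsomal member and among the most abundant, was lower without overlap at 1509.7, 1590.5 and 1384 against 1256, 1128 and 1161 CPM. Members of the alpha and mu classes resemble each other closely in sequence, so how reads were shared among them is uncertain. Without HFD replicates 2 and 3 the counts were 9 higher and 0 lower for the Nrf2 list and 7 and 0 for the transferases. Without HFD replicate 4 they were 8 and 2, and 5 and 2. Averaged over diets they were 20 and 0, and 13 and 1.

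Cytochromes P450 of drug metabolism showed no common direction. Of 35 tested, 6 were higher and 4 lower at an unadjusted p of 0.05, and the median was 0.06. Cyp1a2, a classical target of AhR, stood at 685, 472 and 827 CPM in HFD and 1194, 1119.7 and 1195 CPM in HFD+SAMC, without overlap (log2 fold change 0.82 ± 0.23, edgeR, adjusted p = 0.269). Cyp1a1, the most inducible AhR target, was scarce at 0.258, 0.798 and 1.2 against 0.911, 3.62 and 2.54 CPM, with overlap. Ahr itself overlapped at 44, 24.8 and 35.4 against 40.7, 55.7 and 38.9 CPM. Of the 9 AhR pathway genes 2 were higher and 0 lower at an unadjusted p of 0.05.

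Cyp2b1, the phenobarbital-inducible enzyme controlled by CAR, stood at 7.66, 25.9 and 12.3 CPM in HFD and 70.3, 47.1 and 50.7 CPM in HFD+SAMC (log2 fold change 1.87 ± 0.39, edgeR, adjusted p = 0.179). Its close relative Cyp2b2 stood at 42.1, 161 and 58.3 against 329.9, 203 and 252 CPM. Neither overlapped, and HFD replicate 3 was the highest HFD library for both. Control averaged 0.511 ± 0.128 (SD, n = 3) CPM of Cyp2b1 and Control+SAMC 5.4 ± 1.62 (SD, n = 3) CPM, so HFD and Control+SAMC each stood above Control. Both differences from Control cross the library sets, so the set cannot be told apart from the diet or from SAMC in them. The pair share most of their sequence, and their split of reads is uncertain. Cyp2j3 ran the other way, at 76.1, 46.1 and 73 against 25.9, 39.9 and 17.4 CPM.

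Aldehyde dehydrogenases and other phase I enzymes had 6 of 30 members higher and 0 lower at an unadjusted p of 0.05, with a median of -0.01. Aldh1a1, which makes retinoic acid, stood at 132, 129 and 80.6 against 247, 187 and 179 CPM, and Aldh1l1, of folate metabolism, at 142, 99.1 and 95 against 273, 211 and 167 CPM. Both were without overlap and neither passed (edgeR, adjusted p = 0.28 and 0.269). Glucuronosyltransferases of the UGT1 family had a median of 0.98 over 7 genes, and sulfotransferases one of -0.55 over 10. On the normal diet these medians were 0.79 and 0.20, and averaged over diets 0.69 and -0.20. Sult1c2 stood at 16.9, 17.6 and 10.6 CPM in HFD and 5.39, 2.73 and 4.95 CPM in HFD+SAMC, Sult2a6 at 702, 841 and 557 against 385, 307 and 355 CPM. In both the groups did not overlap. Ugt2b37 was lower by 0.65 log2 units (SE 0.17). Enzymes of cysteine, sulfide and methionine, the metabolic neighbours of SAMC, had 2 of 27 members higher and a median of 0.04.

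Genes of fatty acid oxidation mostly lay lower, though few reached an unadjusted p of 0.05. Among targets of PPARa and genes of fatty acid oxidation 31 of 40 were below 0, with a median of -0.22, beside -0.18 on the normal diet. At that p 3 were higher and 3 lower, 15% beside 10.6% of all genes. Acnat2 is the 1 member that passed. Ppara overlapped at 107, 90.1 and 118 against 98.6, 92 and 96.8 CPM. Acot4, a peroxisomal thioesterase, and Cyp4a1, which hydroxylates fatty acids, stood at 185, 199.95 and 131 against 94.8, 91.2 and 68.6 and at 316, 276 and 403 against 217, 222 and 99.2 CPM. Ehhadh, of peroxisomal oxidation, stood at 318, 442 and 457 against 919, 458 and 476 CPM, where HFD+SAMC replicate 1 was far above the other 5 libraries.

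Lipogenesis had 3 higher and 1 lower of 22 members at an unadjusted p of 0.05 and a median of 0.02. The desaturases Fads1 and Fads2, which make polyunsaturated fatty acids, stood at 112, 112 and 60.7 against 349.8, 177 and 167 and at 108, 115 and 114 against 348, 159 and 147 CPM. Neither overlapped, and HFD+SAMC replicate 1 was the highest library for both. Scd, the delta-9 desaturase, was low in both groups at 0.665, 2.4 and 10.1 against 0.355, 0.737 and 2.58 CPM, while Control averaged 165 ± 105 (SD, n = 3) CPM. Fasn, fatty acid synthase, stood at 70.7, 156 and 84 against 160.3, 258 and 135 CPM, and Thrsp, a regulator of lipogenesis, at 491, 573 and 347 against 278, 270.3 and 326 CPM.

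Of 30 genes of lipid droplets and lipoproteins, 4 were higher and 7 lower at an unadjusted p of 0.05. Apoa4, an apolipoprotein that follows hepatic triglyceride, stood at 359, 403 and 256 CPM in HFD and 119.8, 143 and 87.3 CPM in HFD+SAMC (log2 fold change -1.54 ± 0.30, edgeR, adjusted p = 0.105). G0s2, which inhibits the lipase Atgl, stood at 259, 373 and 144 against 96.7, 116 and 107 CPM (log2 fold change -1.28 ± 0.27, edgeR, adjusted p = 0.16). Neither gene overlapped. Lipc, hepatic lipase, was lower without overlap, at 316, 316 and 296 against 241, 221 and 235 CPM, and Cidea, which enlarges droplets, was higher, at 18.1, 15.8 and 13.1 against 28.7, 36.2 and 35.6 CPM. Plin2, the droplet coat protein often used to mark steatosis, overlapped at 573, 605 and 1049 against 594, 365 and 423 CPM, with HFD replicate 4 highest. The list's lower count was 3, with 1 higher, once HFD replicates 2 and 3 were left out.

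Inflammasome genes were mostly lower with SAMC, with 20 of 24 below 0, 4 lower and 0 higher at an unadjusted p of 0.05, and a median of -0.26. Over all tested genes 5.34% were lower and 5.28% higher at that p. The same median was -0.01 on the normal diet and 0.50 for HFD against Control, which also crosses the library sets. Averaged over diets it was -0.21, with 3 lower and 0 higher, beside 6.11% and 6.31% of all genes. The part of the library set was not tested. No member passed the adjusted edgeR threshold on the high fat diet. Nlrp3, the sensor, stood at 7.11, 8.26 and 3.67 CPM in HFD and 3.77, 4.11 and 4.92 CPM in HFD+SAMC, overlapping through HFD replicate 4 (log2 fold change -0.57 ± 0.27, edgeR, adjusted p = 0.479). Its value was 0.22 without HFD replicates 2 and 3, where 2 members of the list were lower and 0 higher. Casp1, the protease, stood at 5.54, 4.54 and 3.57 against 2.39, 2.98 and 3.47 CPM, and P2rx7, the channel through which extracellular ATP activates NLRP3, at 14.8, 10.5 and 17.3 against 7.33, 7.68 and 8.37 CPM. Both were without overlap, with log2 fold changes of -0.63 ± 0.21 and -0.86 ± 0.23. The cytokine genes Il1a and Il1b overlapped, at 11.6, 8.86 and 4.7 against 3.61, 3.53 and 4.74 and at 10.04, 10.3 and 8.18 against 4.01, 4.5 and 9.52 CPM. Nlrp6, named in the series title, had 0 counts in all 12 libraries, which allows a level of up to 0.0484 to 0.0582 CPM in the 6 libraries compared (3 counts; counting error only).

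Macrophage markers lay lower as well: 15 of 17 were below 0, with 2 lower and 1 higher at an unadjusted p of 0.05, and summed to 1130 to 1381 CPM in HFD and 987 to 1169 in HFD+SAMC. Their median log2 fold change was -0.13, beside 0.007 for SAMC on the normal diet and 0.44 for HFD against Control, which also crosses the library sets. Averaged over diets the median was -0.07. Aif1 stood at 17.6, 22.6 and 11.5 against 5.08, 6.25 and 7.37 CPM and Adgre1 at 52.9, 37.9 and 21.7 against 15, 19.2 and 16.7 CPM, without overlap in either. Cd14 was higher without overlap, at 35.7, 22.4 and 25.4 against 51.2, 48.3 and 51.4 CPM. T and NK cell markers summed to 51.1 to 67.7 CPM in HFD and 51.7 to 54.6 in HFD+SAMC. Of the 10 tested, 9 were below 0, 4 were lower without overlap and 1 was lower at an unadjusted p of 0.05, with a median of -0.47. The part of cell numbers in the inflammasome values was not tested.

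NF-kB genes gave 1 lower and 0 higher of 26 at an unadjusted p of 0.05, below the share over all genes, and a median of -0.03. The subunits Rela and Nfkb1 overlapped at 55.9, 47.8 and 60.1 against 55.6, 65.8 and 55.2 and at 36.6, 38.6 and 39 against 38.4, 41.8 and 39.4 CPM. Nfkbia, which encodes the inhibitor IkBa and is itself a target, stood at 38, 36.4 and 39.5 against 23.2, 28.3 and 36.8 CPM (log2 fold change -0.37 ± 0.25, edgeR, adjusted p = 0.635). Vcam1, an adhesion molecule target, was the lower member, at 8.42, 11.4 and 7.26 against 5.22, 3.59 and 4.27 CPM without overlap. Protein phosphorylation and nuclear entry, by which this pathway is mainly controlled, are not seen in transcript counts.

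Of the fibrosis and matrix genes, 5 of 35 were lower and 2 higher at an unadjusted p of 0.05. All 10 collagen genes were below 0, with 4 lower at that p and a median of -0.51. The same median was 0.29 for SAMC on the normal diet and 0.54 for HFD against Control, signs that also follow the library sets. Averaged over diets the collagen median was -0.16. The 35 genes then had 3 higher and 3 lower at an unadjusted p of 0.05, beside 6.31% and 6.11% of all genes. Col3a1, a fibrillar collagen, stood at 112, 228 and 136 against 89.1, 111 and 97.9 CPM, and Col5a1, which nucleates such fibrils, at 20.6, 37.3 and 25.4 against 16.5, 16.6 and 17.5 CPM. HFD replicate 3 was the highest library for both, and the groups did not overlap. Col14a1 stood at 37.7, 61 and 36.9 against 25.8, 29.2 and 29.3 CPM, and Col1a2 was near its detection limit at 0.314, 0.906 and 0.561 against 0.123, 0.141 and 0.139 CPM. Stellate cell markers, which hold Col3a1, summed to 298 to 430.3 CPM in HFD and 230.4 to 329 in HFD+SAMC. Of the 11 tested, 5 were above 0 and 6 below, with 2 higher and 2 lower at an unadjusted p of 0.05, so these markers had no common direction. Their part in the collagen values was not tested. The count of lower members of the whole list was 3 without HFD replicates 2 and 3, and 8 without HFD replicate 4.

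Markers of bile duct cells were higher: 7 of 8 were above 0 and 3 higher at an unadjusted p of 0.05, and they summed to 15.97 to 18.3 CPM in HFD and 25.3 to 34.5 in HFD+SAMC. Epcam stood at 4.78, 4.05 and 4.19 against 6.85, 10.6 and 7.35 CPM. Sinusoidal endothelial markers summed to like amounts, 486 to 497 CPM against 476 to 531, although the lectin gene Clec4g was lower at 23.4, 23.7 and 26.6 against 13.4, 15.5 and 15.3 CPM. Of the hepatocyte markers 3 of 12 were lower at an unadjusted p of 0.05. Hnf4a, the nuclear receptor that maintains hepatocyte identity, stood at 961, 918 and 874 CPM in HFD and 499.6, 649 and 529.8 CPM in HFD+SAMC (log2 fold change -0.71 ± 0.17, edgeR, adjusted p = 0.208), with no overlap.

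Glucose and insulin response genes had 5 of 21 lower and 1 higher at an unadjusted p of 0.05, and a median of -0.30. The median was -0.0010 without HFD replicate 4 and 0.046 with the replicate number as a block. Pck1, the rate-controlling enzyme of gluconeogenesis, stood at 1071, 937 and 711 CPM in HFD and 335, 337 and 397 CPM in HFD+SAMC. Every library with SAMC was far below every one without. The log2 fold change was -1.35 ± 0.28 (edgeR, adjusted p = 0.138), and Control averaged 580.5 ± 222 (SD, n = 3) CPM.

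Acute phase genes split evenly, with 3 of 29 higher and 3 lower at an unadjusted p of 0.05. Orm1, an acute phase glycoprotein, stood at 514, 213 and 288 against 826, 863 and 1147 CPM without overlap. Cell cycle genes had 6 of 25 lower and 0 higher, and HFD replicate 3 was highest for the list. The median of -0.31 became -0.022 without that library and 0.20 without HFD replicates 2 and 3. Ccnd1, a G1 cyclin, stood at 79.6, 149 and 33.3 against 22.2, 34.2 and 19.98 CPM with overlap, and Mki67, a marker of dividing cells, at 4.08, 4.39 and 2.06 against 1.47, 1.41 and 1.52 CPM.

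Whether SAMC acted differently on the 2 diets was tested as the interaction in the same fit. It called 23 genes (0.145%), 3 with a more positive (0.0188%) and 20 with a more negative (0.126%) SAMC effect on the high fat diet. Of the 23, 12 are pseudogenes, gene copies or provisional entries, among them the uncharacterized lncRNA genes LOC102548522 and LOC102552121. Without overlap between the library sets were 22 of the 23, with 19 higher in Control+SAMC and HFD and 3 higher in the other set. Over all 15916 tested genes these counts were 104 and 19. The interaction contrast is by construction the difference between the 2 library sets, so the interaction and the library set cannot be told apart. The interaction estimate was -0.65 ± 0.18 for Gstp1 and -2.00 ± 0.41 for Akr7a3 (edgeR, adjusted p = 0.375 and 0.115), and 0.93 ± 0.27 for Tmem97 (edgeR, adjusted p = 0.415). For Tm7sf2 it was 1.91 ± 0.46 and for Abcd2 2.07 ± 0.51 (edgeR, adjusted p = 0.26 for both). None of these passed, so a diet dependence of the Nrf2-linked or cholesterol genes was not shown.

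The groups of both diets share no library, so no library enters SAMC's log2 fold changes on both. The library sets do enter both, and with opposite signs. HFD+SAMC and Control are of the same set, as are HFD and Control+SAMC. A difference between the sets would move the values on the diets apart, so their agreement does not describe SAMC alone. The part of the library set in it was not tested. Of the 19 genes called on the normal diet, 14 had the same sign on the high fat diet, 14 of 18 higher ones and 0 of 1 lower, and 3 were called on both. Over all tested genes 55.3% had the same sign, and Spearman's rho was 0.151 and Pearson's r 0.109 across genes, which are not independent replicates. Of the genes described here, Gstp1, Akr7a3, Akr1b8, Gsta3, Gstm1, Abcc3 and Ugt1a6 were higher with SAMC on both diets. Tmem97 and Cyp51 had smaller values on the normal diet, where the levels without SAMC were higher.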

How the data were processed

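Liver RNA of 12 rat libraries (4 groups of 3) was measured by RNA-seq. Per the labels' protocols, RNA was extracted with Trizol, depleted of ribosomal RNA and sequenced from both ends on an Illumina instrument. Reads were trimmed with Trimmomatic 0.36 per the submitters' processing notes, aligned with HISAT2 and counted with HTSeq. Build and strand setting of the counting: not given in the sources used here. One table was deposited by the authors: it holds raw read counts per gene with RPKM values. The RPKM equalled count over listed length and library total within a relative tolerance of 1e-06 for all but 1 of 40154 genes, and were used only for that check.

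The counts were tested with edgeR 4.0.16 in R 4.3.3: filterByExpr (15916 genes, 99.96% of counts), TMM, 1 fit of all 12 libraries with 8 residual degrees of freedom, quasi-likelihood F-tests (two-sided) and Benjamini-Hochberg adjustment over all tested genes. Library totals were 45680738 to 61937544. CPM are counts scaled to a common library total, and their SDs are over 3 libraries. Differences were tested between group coefficients, as was the interaction of SAMC and diet.

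Members and gene lists were chosen with earlier results of these data known. Genes were named when past an adjusted p of 0.05, when among the next by p (mean log2 CPM of at least 1, a settled symbol, no overlap, up to 12 a direction), when among the 5 smallest p of a list, when in the series title, or when a description by role needed them. Lists are described by counts and medians. Some genes are not reported here. Alternatives were other normalizations and filters, DESeq2 1.42.0, the 6 libraries alone, a replicate block, the SAMC effect averaged over diets and leaving out libraries. List counts under 5 of these were added after seeing the data. On simulated counts (15619 genes, 50 changed at each fold) the test recovered 5, 24, 46 and 50 genes at 1.5, 2, 4 and 8-fold, with 5 false calls. Genes with near-identical copies and antisense partners are uncertain. Promoters are RefSeq's on GRCr8, and 29159 genes matched the reference table by Entrez number.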

Additional observations from a re-analysis of the deposited data

Results flagged for a closer look

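For 7 genes the SAMC effect on the high fat diet differed from that on the normal diet by a test of the difference itself, the interaction term of edgeR's fit over all genes (23 genes, 0.145%, past an adjusted p of 0.05). All 7 estimates were negative, meaning a lower SAMC effect on the high fat diet. Of genes past the threshold in HFD+SAMC against HFD, the interaction was -3.67 log2 units for LOC100911991, -2.45 for LOC103691939 and -2.45 for LOC100911847. It was -2.57 for Hnrnpab, an RNA-binding protein gene, -2.18 for the pseudogene Eif4g2-ps1 and -2.47 for Hsp90aa1, the inducible cytosolic chaperone. Hsp90aa1 stood at 11.8, 13.4 and 13.2 CPM in HFD and 5.71, 5.11 and 5.99 CPM in HFD+SAMC, while Control and Control+SAMC averaged 3.92 ± 1.19 (SD, n = 3) and 9.52 ± 2.89 (SD, n = 3) CPM. In each of these 6 genes all libraries of Control+SAMC and HFD lay above all libraries of Control and HFD+SAMC. The diet dependence of these genes and the library set cannot be told apart.

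Fam111a, a protease gene linked to DNA replication and viral host range, had an interaction of -20.91 log2 units (edgeR, adjusted p = 0.0392) and was chosen after its values were seen. It stood at 162, 136 and 65.4 CPM in HFD (8773, 8845 and 3494 counts) and at 0.0463, 0.0784 and 0.0619 CPM in HFD+SAMC (3, 5 and 4 counts). Control libraries held 4, 6 and 1 counts, and Control+SAMC libraries 10178, 1994 and 17. The gene was therefore high in 5 libraries of one set and near 0 in the other 7, among them Control+SAMC replicate 3. The fitted fold changes depend on the prior count because the low libraries hold so few reads, and HFD+SAMC against HFD itself had an edgeR adjusted p of 0.151. That p was 0.0019 in the edgeR fit of the 6 libraries compared and 0.0057 without Control+SAMC replicate 3, and 0.12 to 0.406 in the other edgeR fits of this contrast apart from 0.868 without HFD replicates 2 and 3. DESeq2 gave 2.86e-11.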

How the results depend on the processing

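Of 15916 genes tested, 8 passed in HFD+SAMC against HFD, and the count was 8 with RLE factors, with upper quartile factors and with a mean CPM of at least 1. It was 19 with all genes of at least 1 count, 23 in a fit of the 6 libraries alone (6 genes shared with the 8), 35 for SAMC averaged over diets (5 shared) and 249 in DESeq2 (118 higher, 131 lower, all 8 shared). Leaving out 1 library gave 1 to 27 genes, the lowest without HFD+SAMC replicate 3 and the highest without Control replicate 2. Without HFD replicates 2 and 3 edgeR called 0 genes, with 434 higher and 392 lower of the 15916 genes at an unadjusted p under 0.05, and DESeq2 was not run on those libraries; the lone HFD library is there assumed to vary like the other groups. The interaction of SAMC and diet called 23 genes, 13 with a mean CPM of at least 1, 1 without HFD replicates 2 and 3, 128 in DESeq2, and 7 to 19 with 1 library left out.

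With the replicate number as a block the counts were 11 (3 of them shared with the 8) for HFD+SAMC against HFD and 9 for the interaction. Deviations of same-numbered libraries correlated at -0.037 and 0.016 for replicates 2 and 3 of the groups compared, so the numbers were not taken to pair samples.

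Among 110 genes named here, the log2 fold change reversed sign in 12 cases, none of them for a gene past the threshold except LOC100911991 at 0.061 averaged over diets. Averaged over diets it was 0.10 for Eif4g2-ps1, 0.50 for Gclc, 0.49 for Gclm, -0.0040 for Rela and 0.043 for Hsp90aa1. With 1 library left out Gclm ran from -0.65 to 0.063 (without HFD replicate 3). Without HFD replicates 2 and 3 the values were 0.062 for Nfe2l2, -0.042 for Hmox1, 0.22 for Nlrp3, -0.025 for Rela and -0.40 for Fga. The causes were not tested. With 3 libraries a group the common biological coefficient of variation was 0.299, and depth limits what can be detected of genes near 0 counts, such as Nlrp6.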

Other observations

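Lists that the comparisons above did not describe showed few members beyond the background of 10.6% at an unadjusted p of 0.05. Interferon-stimulated genes had 2 of 22 members higher and 0 lower, with a median log2 fold change of 0.24. Genes of endoplasmic reticulum and integrated stress had 3 of 25 higher and 0 lower, with a median of -0.03. Heat shock proteins had 1 of 16 higher and 2 lower, and circadian clock genes 1 of 20 higher and 1 lower with a median of -0.35. The clock median was 0.019 without HFD replicate 3 and 0.096 without HFD replicates 2 and 3. None of these lists held a gene past an adjusted p of 0.05 in edgeR, and the time of tissue collection is not in the labels.

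By gene class, 13.8% of 406 tested pseudogenes and 10.6% of 14107 protein-coding genes had an unadjusted p under 0.05, against 7.96% of 1017 lncRNA genes and 15.1% of 86 lincRNA genes. The 6 protein-coding genes past the adjusted threshold include LOC100911847.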
